A study of Mus musculus with 17 samples.

Results

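Genes that mark arterial endothelium were followed through RNA of mouse bone marrow endothelial cells with and without induced deletion of the Endoglin gene (Eng). The genes are the arterial connexins Gja4 and Gja5 and the arterial markers Bmx, Mgp, Clu, Gkn3, Crip1 and Tmem100, which lie outside the Notch, ephrin and transcription factor families. They were chosen by name, and all 8 were found among the 49585 genes of each count table. The animals were wild type (WT) or carried an induced endothelial deletion of Eng (KO). Part of the Eng RNA remained in the KO libraries, as given below. Per the series' design text, the KO line was Cdh5:CreERT2-Eng f/f, in which tamoxifen activates a Cre recombinase under control of the endothelial Cdh5 promoter and exons 5 and 6 of Eng, flanked by loxP sites, are removed. All animals, WT included, carry the label of tamoxifen injection; induction was at 8 weeks of age, and the labels do not say whether WT animals carried the floxed allele or the Cre. Cells were collected 2 weeks later (4 WT and 4 KO libraries) or 4 weeks later (5 WT and 4 KO libraries), and a library goes by its sex and number (f1, m2; the 4-week WT female f has no number). Long bones were crushed and CD45- Ter119- CD31+ Sca1+ cells were sorted into lysis buffer; the design text gives the gate without Sca1, a protein carried more strongly by arterial than by sinusoidal endothelium of marrow.

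Arteries and arterioles enter the marrow and open into a wide sinusoidal network, and their endothelial cells express a set of genes that sinusoidal cells express weakly or not at all. Gja4 and Gja5 encode the gap junction proteins connexin 37 and connexin 40, through which arterial endothelial cells pass small molecules and electrical signals to each other and to smooth muscle. Endoglin is a co-receptor that presents the circulating ligands BMP9 and BMP10 to the receptor ALK1 (Acvrl1), which signals through SMAD proteins. Tmem100 is a known target of that receptor in endothelium, and Mgp encodes matrix Gla protein, a secreted inhibitor of BMP ligands and of calcification. The comparisons asked how these genes differed between genotypes at each time point and between time points in each genotype.

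The upstream sequences of the connexin pair are shown because these 2 genes share a function and ran differently over the libraries at 4 weeks, and because the deleted co-receptor signals through SMAD proteins. Promoter sequence from RefSeq (GRCm38.p6) was at hand for 5 of the 8 genes (Gja4, Gja5, Bmx, Gkn3 and Crip1). The 250 bases before the RefSeq start are printed 5′ to 3′ on the gene's own strand, Gja4 from chr4:127314040-127314289 (minus strand) and Gja5 from chr3:97032152-97032401 (plus strand). Capitals mark every match, on either strand, to the SMAD box CAGAC (reverse complement GTCTG) or to the core CACCC (reverse complement GGGTG) that KLF factors bind; these motifs overlap each other nowhere in these windows.
Gja4: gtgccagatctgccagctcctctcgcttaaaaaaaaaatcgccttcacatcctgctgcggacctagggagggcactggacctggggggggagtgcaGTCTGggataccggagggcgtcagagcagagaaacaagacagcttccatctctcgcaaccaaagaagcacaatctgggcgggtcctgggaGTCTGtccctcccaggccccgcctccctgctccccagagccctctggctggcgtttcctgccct
Gja5: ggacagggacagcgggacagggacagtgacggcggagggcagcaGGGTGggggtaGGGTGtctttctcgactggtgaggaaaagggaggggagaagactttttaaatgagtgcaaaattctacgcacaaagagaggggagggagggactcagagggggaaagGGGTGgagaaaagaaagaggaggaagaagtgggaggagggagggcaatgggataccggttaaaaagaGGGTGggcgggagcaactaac
The Gja4 window held 2 SMAD boxes and no KLF core, and the Gja5 window held 4 KLF cores and no SMAD box. Of 32851 RefSeq promoter windows of this length, 42.2% held a SMAD box and 52.0% a KLF core; 11.7% held at least 2 SMAD boxes and 2.14% at least 4 KLF cores. A pair of other motifs was also searched on both strands: TGGGAA of RBPJ (reverse complement TTCCCA), found in neither window and in 21.6% of all, and the SOX core ACAAT (reverse complement ATTGT), found 1 time for Gja4, 0 times for Gja5 and in 27.7% of all. These matches are a description of the letters only.

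Libraries held 26705337 to 40882715 counts at 2 weeks and 20477400 to 33726630 at 4 weeks. The time points differed throughout: 2-week libraries had counts for 10886 to 13583 genes and 4-week libraries for 15996 to 21235, and the mitochondrial share of counts was 22.2% to 29.5% against 4.66% to 8.99%. Time point and any batch therefore cannot be told apart, since no label records a batch. At 4 weeks the libraries also fell into 2 sets on the first principal component of 4719 abundant genes, which carried 46.1% of their variance. A set of 5 (WT f, m1 and m2, KO m1 and m2) had the endothelial receptor gene Kdr at 1646 to 2179 CPM (the share of the library's counts, scaled to counts per mega-count), and a set of 4 (WT f3 and m3, KO f2 and m3) had it at 416 to 626 CPM. Eng itself was lower in each KO library than in each WT library of its time point, at 21.4% to 33.0% of the WT mean at 2 weeks and at 10.6% (m3), 12.4% (m1), 33.8% (f2) and 63.7% (m2) at 4 weeks.

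The sort was checked against markers of other cells. Of 12 pan-endothelial genes, Eng among them, Ly6c1 had the highest mean in each of the 4 groups. Their summed level was 9084 to 11177 CPM in WT and 8380 to 9188 CPM in KO at 2 weeks, and 19172 to 20162 CPM in WT and 16446 to 17651 CPM in KO at 4 weeks, where the groups did not overlap. Without Eng the 4-week sums were 16772 to 17529 CPM in WT and 15572 to 16746 CPM in KO, which did not overlap either; the part of this difference in the values of the arterial genes was not tested. The summed level of the 8 arterial genes was 784 to 1260 CPM at 2 weeks and 1452 to 2046 CPM at 4 weeks. The sinusoidal marker Stab2 averaged 1.64 ± 2.95 CPM in 2-week WT (SD, n = 4) and 27.1 ± 15.8 CPM in 4-week WT libraries (SD, n = 5). Mural cell genes were present in every library, at a summed 895 to 3153 CPM over 10 genes, led by the pericyte gene Rgs5. Lymphoid genes summed to at most 26.7 CPM, chondrocyte genes to at most 69.1 CPM, and megakaryocyte and platelet genes to at most 82.8 CPM. Stromal and fibroblast genes summed to 33.3 to 266 CPM. Mgp and Clu are also expressed by mural and stromal cells, and in bulk RNA fewer cells of a type and less RNA per cell cannot be told apart.

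Compared per kilobase of exon, so that genes can be ranked, the arterial genes spanned a wide range of levels. In 4-week WT libraries Crip1, which encodes a small LIM-domain protein, led with 422.4 ± 65.7 CPM per kb (SD, n = 5). Mgp followed at 162 ± 35.0, Gja4 at 97.2 ± 24.1 and Clu at 72.7 ± 23.4 CPM per kb. Clu encodes clusterin, a secreted chaperone. A gap then separated Gkn3 (14.3 ± 7.16), a gastrokine family gene known as an arterial marker, from Clu. Tmem100 (12.3 ± 3.31), Gja5 (11.7 ± 2.98) and Bmx (7.63 ± 5.56 CPM per kb), a Tec family kinase gene of arterial endothelium, closed the order. The ranges over libraries did not overlap between Crip1 and Mgp or between Clu and Gkn3; every other pair of neighbours overlapped. Within single libraries Mgp exceeded Gja4, and Gja4 exceeded Clu, in 5 of 5, while each of Gkn3, Tmem100 and Gja5 exceeded the next gene in 4 of 5. KO libraries at 4 weeks had the same 4 genes on top in the same order, and the same 4 below with Tmem100 ahead of Gkn3. The connexins thus differed in level: Gja4 exceeded Gja5 per kb in each of the 9 libraries at 4 weeks.

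**Figure D1:**
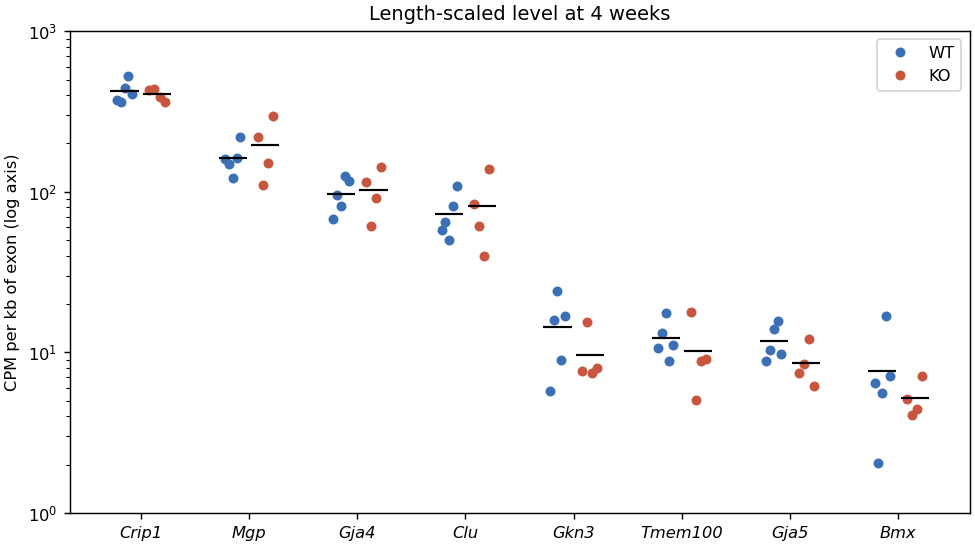
Level of each gene at 4 weeks in CPM per kb of exon (log axis), 1 point per library, WT in blue (5 libraries) and KO in red (4 libraries), with black lines at the group means. Crip1 stands above the other genes in both genotypes, and the 4 genes on the right lie below the 4 on the left.

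At 2 weeks detection was uneven, which sets how much these libraries can show. Gja4 had 0 counts in KO f1, which at that library's depth allows up to 0.112 CPM (3 counts; this limit covers counting error only), while the other 7 libraries held 37.7 to 110 CPM. Gkn3 had 0 counts in WT m3, KO f1 and KO f4 and reached 12.1 CPM in WT f4 and 12.5 CPM in KO m3. Tmem100 had 0 counts in WT m2, KO f4 and KO m3 and reached 17.9 CPM in WT m3. The zeros fell in both genotypes, and no library lacked more than 2 of the genes. Such zeros were common at these levels: of 9512 genes whose 2-week mean lay in the span of the 8 members (4.06 to 653 CPM), 47.8% had 0 counts in at least 1 of the 8 libraries, and 3 of the 8 members did. At 4 weeks the share was 0.597% of 8379 genes in the corresponding span, and no member was at 0 in any library.

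**Figure D2:**
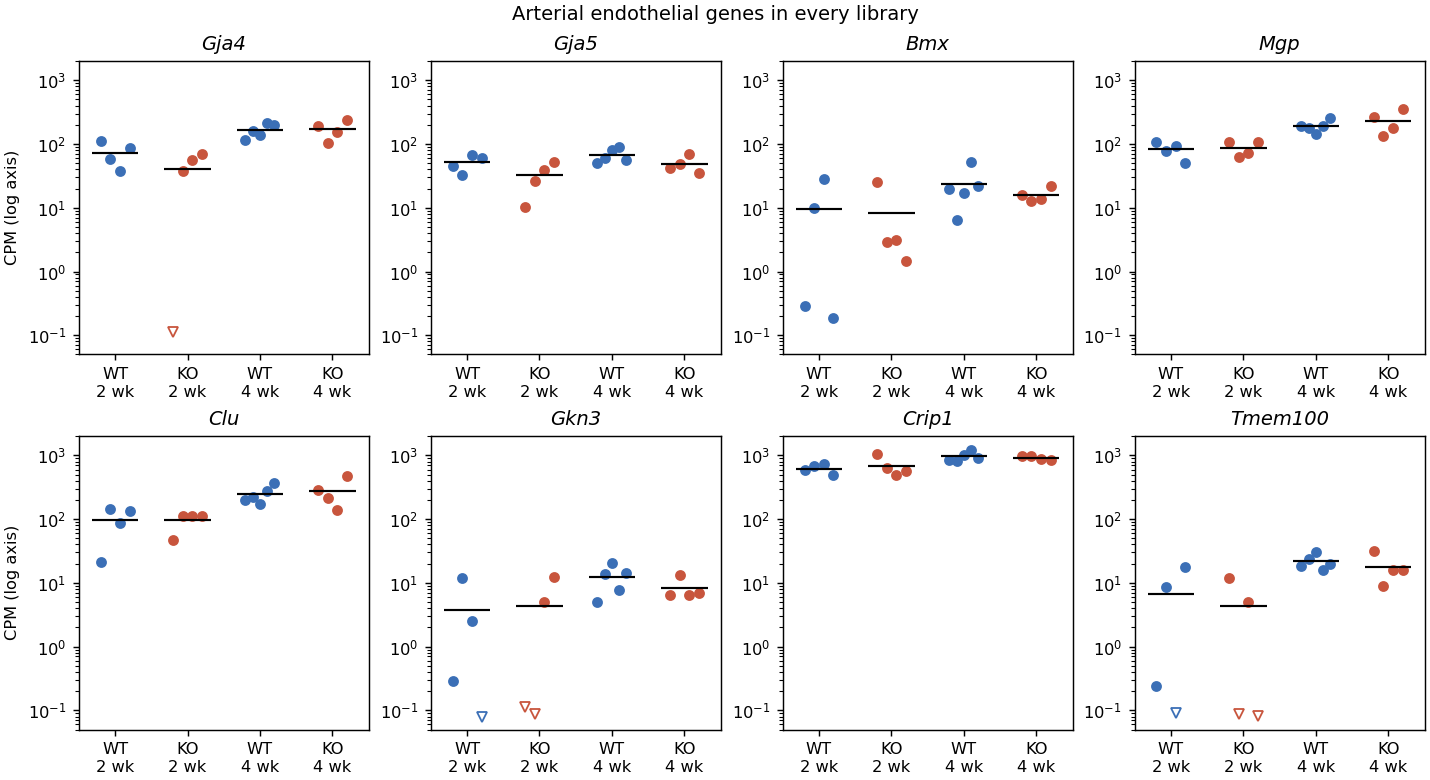
CPM of the 8 arterial genes in every library (log axis), grouped by genotype and time, WT in blue and KO in red, with black lines at group means. Open triangles stand for 0 counts and are drawn at the CPM of 3 counts in that library; they occur at 2 weeks only, in Gja4, Gkn3 and Tmem100.

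None of the 8 arterial genes passed the adjusted threshold for a KO effect at 2 weeks. Among the 5 genes with counts in all 8 libraries, the connexin Gja5 had the fitted fold change farthest from 0, whereas on the log2 CPM scale (prior count 2) Bmx was farther from it, with a mean difference of 0.99 against -0.87 for Gja5. Gja5 was at 45.3 (f1), 33.2 (f4), 68.5 (m2) and 60.3 CPM (m3) in WT and 10.2 (f1), 26.3 (f4), 39.7 (m2) and 52.4 CPM (m3) in KO. Both lowest values were KO libraries, but the groups overlapped, since KO m2 and m3 lay above WT f4. The log2 fold change was -0.78 (SE 0.52, 95% confidence interval -2.0 to 0.44; unadjusted p = 0.173, adjusted p = 1, edgeR quasi-likelihood test with Benjamini-Hochberg adjustment over 10477 genes), and -0.50 without KO f1. The exact two-sided permutation test over the 70 assignments gave p = 0.171 for Gja5, where 0.0286 was the smallest value possible. Its partner Gja4 was at 110 (f1), 58.7 (f4), 37.7 (m2) and 85.7 CPM (m3) in WT and at 0, 37.7, 55.7 and 70.9 CPM in KO f1, f4, m2 and m3. The Gja4 groups overlapped, and its fold change of -1.06 carried an SE of 1.63. It was -0.41 without KO f1, the library at 0.

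The remaining arterial genes at 2 weeks had wide or near-zero estimates. Mgp (62.2 to 109 CPM in KO, 50.6 to 108 CPM in WT; log2 fold change 0.10, SE 0.35), Crip1 (491 to 1059 and 491 to 743 CPM; 0.11, SE 0.22) and Clu (47.1 to 113 and 21.6 to 144 CPM; -0.02, SE 0.59) were centred near 0. Bmx was scattered in both groups, from 0.186 to 28.0 CPM in WT and 1.48 to 25.1 CPM in KO, and its direction depended on the scale: the fitted log2 fold change was -0.55 (SE 2.34), while the mean difference of log2 CPM was positive. Gkn3 and Tmem100, with zeros in both groups, had SEs of 9.01 and 3.07, so no useful bound follows for them at 2 weeks. In all, 0 of 8 were called in either direction by edgeR, 0 passed an unadjusted p under 0.05, and DESeq2 and limma voom called none; over all genes edgeR called 0% of 10477, with 276 (2.63%) at an unadjusted p under 0.05, and DESeq2 called 149 and voom 12. The fold change was negative for 6 of the 8 against 53.1% of all genes, with a median of -0.66 against -0.06 for all genes. Blood cell markers had higher sums in KO at 2 weeks: 10 neutrophil genes, led by S100a8, summed to 107 to 4104 CPM in KO and 22.6 to 110 CPM in WT, and 9 erythroid genes, led by Hbb-bs, to 278 to 1248 and 61.4 to 195 CPM. Their part in these values was not tested. KO m2 and m3, which held the most neutrophil RNA, were also the 2 highest KO libraries for Gja5, and its fold change was -1.12 without them, a direction that their removal favours. Without them the sign turned for Bmx (1.43), Mgp (-0.19) and Tmem100 (0.39), while Crip1 was at 0.39 and Gkn3 at -10.7.

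At 4 weeks, with every gene detected in every library, again none of the 8 passed the adjusted threshold. Gja5 was at 50.4 (f), 59.3 (f3), 80.4 (m1), 90.3 (m2) and 56.0 CPM (m3) in WT and 42.5 (f2), 48.8 (m1), 69.6 (m2) and 35.3 CPM (m3) in KO. The 3 lowest libraries were KO and the 2 highest were WT, but KO m2 lay above 3 of the WT libraries. Its log2 fold change was -0.49 (SE 0.23, 95% confidence interval -1.01 to 0.03; unadjusted p = 0.0609, adjusted p = 0.9997, edgeR, 15209 genes), and the exact permutation test over 126 assignments gave p = 0.119, where 0.00794 was possible. Among the 16 permutation tests run on single genes (8 at each time point), these 2 p-values of Gja5 were the smallest. The estimate moved with single libraries. By edgeR the Gja5 fold change was -0.64 without KO m2 (unadjusted p = 0.0234), -0.59 without WT m3 (unadjusted p = 0.0399), -0.39 without WT m2 (unadjusted p = 0.148) and -0.36 without KO m3 (unadjusted p = 0.135), none of them called. As a share of the WT mean, Gja5 was at 103% in KO m2, 72.5% in m1, 63.1% in f2 and 52.4% in m3. Set beside the Eng shares given above, KO m2 was the highest of the 4 for both genes and m3 the lowest for both. KO m1 held less Eng and more Gja5 than f2. KO m2 and m1 belonged to the set with higher Kdr, and f2 and m3 to the set with lower Kdr. A link between the Eng and Gja5 shares was not tested. At 2 weeks KO f1 was the lowest for both, with Eng at 21.4% and Gja5 at 19.7% of the WT mean. The Gja5 share was 50.8% in f4, 76.7% in m2 and 101% in m3, where Eng was at 25.3%, 33.0% and 24.6%.

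The 4-week Gja5 values were also compared within the sets of libraries. In the set with higher Kdr, WT libraries held 50.4, 80.4 and 90.3 CPM and KO libraries 48.8 and 69.6 CPM, which overlapped (18% of 15209 genes did not in this set). In the set with lower Kdr, WT libraries held 56.0 and 59.3 CPM and KO libraries 35.3 and 42.5 CPM, which did not overlap, as was the case for 37% of all genes with 2 libraries a group. A term for the sets, chosen after the data were seen, left the fold change of Gja5 at -0.45 (unadjusted p = 0.0658, edgeR).

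The values of Gja4 ran differently. They were 114 (f), 161 (f3), 137 (m1), 212 (m2) and 196 CPM (m3) in 4-week WT and 194 (f2), 103 (m1), 153 (m2) and 240 CPM (m3) in KO, so that the lowest and the highest of the 9 libraries were both KO. The log2 fold change was 0.09 (SE 0.29, 95% confidence interval -0.56 to 0.74), which leaves room for change in either direction. It was -0.06 with the term for the sets and -0.12 in males alone. The library KO m3 showed how far apart the connexins can lie: it held the most Gja4 and the least Gja5 of the 9.

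The secreted proteins had their highest 4-week values in that same library. Mgp was at 191 (f), 178 (f3), 145 (m1), 191 (m2) and 259 CPM (m3) in WT and 261 (f2), 132 (m1), 179 (m2) and 352 CPM (m3) in KO. Clu was at 198, 225, 172, 281 and 374 CPM in WT f, f3, m1, m2 and m3, and at 288, 211, 137 and 478 CPM in KO f2, m1, m2 and m3. For both genes the lowest and the highest of the 9 libraries were KO, and the WT libraries lay between them. The log2 fold changes were 0.29 (SE 0.30, 95% confidence interval -0.41 to 0.98) for Mgp and 0.17 (SE 0.38, -0.70 to 1.04) for Clu; without KO m3 they were -0.03 and -0.24. The mural genes in KO m3 summed to 996 CPM, within the 895 to 3153 CPM of the WT libraries, and its stromal and fibroblast genes to 77.0 CPM against 75.5 to 266 CPM in WT. With the term for the sets of libraries the fold change was 0.11 for Mgp and -0.07 for Clu.

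Of the other arterial genes at 4 weeks, Crip1 was the steadiest. It was at 824 to 1196 CPM in WT and 831 to 989 CPM in KO, with a log2 fold change of -0.06 (SE 0.12, 95% confidence interval -0.34 to 0.23), the narrowest interval of the 8. Bmx ran from 6.34 (f3) to 52.4 CPM (m2) in WT and from 12.6 to 22.0 CPM in KO, so that the KO libraries lay inside the WT range (-0.49, SE 0.47). Without WT m2 the Bmx fold change was -0.05, and without KO f2 it was -0.89. Gkn3 was at 4.92 to 20.6 CPM in WT and 6.35 to 13.3 CPM in KO (-0.63, SE 0.47; -0.38 without WT m1). Tmem100, the BMP9 target, was at 15.7 to 30.9 CPM in WT and 31.4 (f2), 8.95 (m1), 15.6 (m2) and 16.0 CPM (m3) in KO (-0.27, SE 0.36, 95% confidence interval -1.09 to 0.54). Its highest and its lowest library were both KO, and its fold change was -0.69 without KO f2, -0.065 without KO m1 and -0.017 without WT m1.

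Over the 8 genes at 4 weeks, 0 were called by edgeR, 0 passed an unadjusted p under 0.05, and DESeq2 and voom called none. Over all genes edgeR called 0% of 15209, with 422 (2.77%) at an unadjusted p under 0.05; DESeq2 called 17 and voom 0. The fold change was negative for 5 of the 8 against 48.7% of all genes, with a median of -0.17 against 0.01. WT and KO ranges overlapped for each of the 8 genes at both time points, while the groups did not overlap for 3.36% of all genes at 2 weeks and 1.19% at 4 weeks. Erythroid genes summed to 611 to 2900 CPM in 4-week KO and 165 to 1273 CPM in WT libraries, and their part in these values was not tested.

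**Figure D3:**
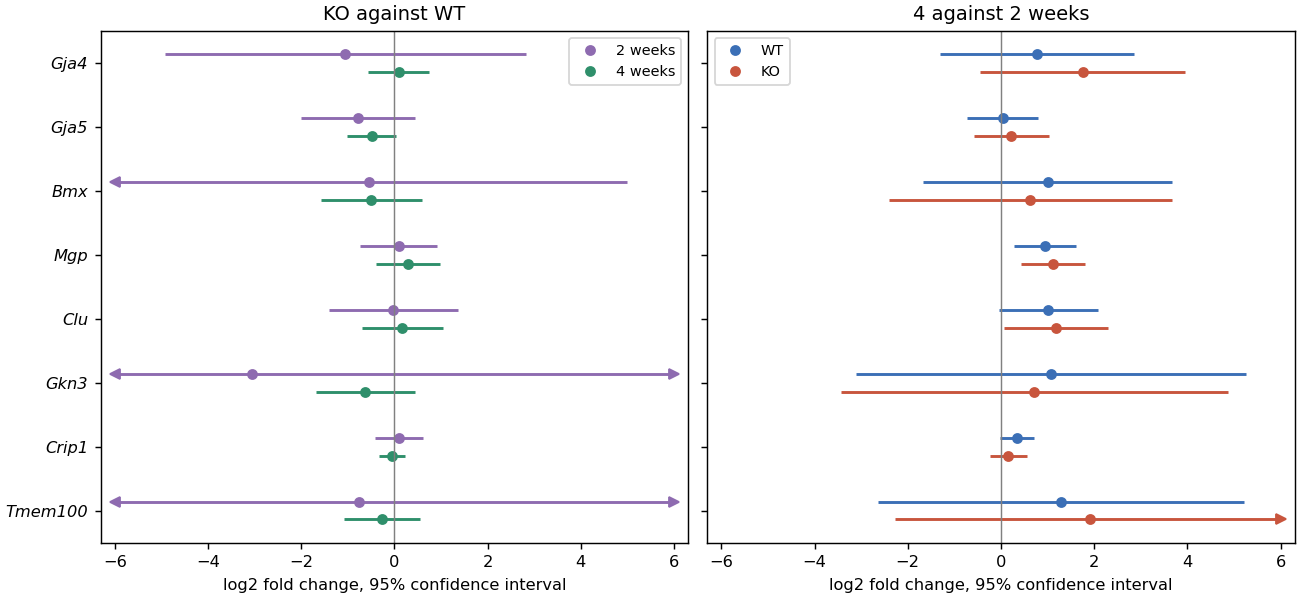
Log2 fold changes of the 8 genes with 95% confidence intervals from edgeR: KO against WT on the left (2 weeks in purple, 4 weeks in green), 4 against 2 weeks on the right (WT in blue, KO in red). Arrows mark intervals that run beyond 6; each KO interval includes 0, and at 4 weeks the interval of Gja5 ends at 0.03.

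The KO effect was not shown to differ between the time points for any of the arterial genes. The difference of the log2 fold changes, 4 weeks minus 2 weeks, ran from -0.37 (Bmx, SE 1.86) to 0.98 (Gja4, SE 1.39; 0.48 without 2-week KO f1), and for Gja5 it was 0.18 (SE 0.52, 95% confidence interval -0.93 to 1.29). By edgeR 0 of the 8 were called and 0 passed an unadjusted p under 0.05, against 0.104% (14) and 9.48% of 13515 genes; DESeq2 and voom called none of the 8, and 929 and 9 of all genes.

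Between 2 and 4 weeks the fold change was positive for 8 of 8 genes in WT, where 60.5% of all genes were positive, and for 8 of 8 in KO, where 61.7% were, but none passed the adjusted threshold. It was also positive for 12 of 12 pan-endothelial and 16 of 16 sinusoidal and venous genes in WT. In KO it was positive for 11 of 12 and 15 of 16 of these. These comparisons set libraries against each other that differ in genes detected and in mitochondrial share, as given above. Mgp came closest: 2-week WT libraries held 50.6 (m3), 78.8 (f4), 93.6 (m2) and 108 CPM (f1), and each 4-week WT library, at 145 CPM or more, exceeded them. Its log2 fold change was 0.94 in WT (SE 0.31, unadjusted p = 0.00838, adjusted p = 0.0820) and 1.11 in KO (SE 0.32, unadjusted p = 0.00385, adjusted p = 0.0507, edgeR). DESeq2 placed Mgp past the threshold in both genotypes (adjusted p = 0.0180 in WT and 0.00681 in KO). In KO, edgeR also called Mgp when 4-week KO m1 (1.30), 2-week WT f1 (1.10), 2-week WT m3 (1.10) or 2-week KO m3 (1.33) was left out.

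Clu followed Mgp, with log2 fold changes of 1.02 in WT (SE 0.50, unadjusted p = 0.0608, adjusted p = 0.323) and 1.18 in KO (SE 0.52, unadjusted p = 0.0400, adjusted p = 0.232, edgeR). Gja4 was higher in each 4-week library than in each 2-week library of its genotype, at 114 to 212 against 37.7 to 110 CPM in WT, with a fold change of 0.77 (SE 0.97) in WT and 1.75 (SE 1.03) in KO, where KO f1 was at 0. Gja5 showed no such separation, with fold changes of 0.04 (SE 0.36) in WT and 0.22 (SE 0.38) in KO. Crip1 was at 0.34 (SE 0.17) in WT and 0.16 (SE 0.19) in KO. Bmx, Gkn3 and Tmem100, whose 2-week values were scattered, had fold changes of 0.63 to 1.91 with SEs of 1.25 to 1.96 by edgeR. By voom they were larger, at 2.65, 4.29 and 3.10 in WT and 1.87, 2.38 and 5.04 in KO for Bmx, Gkn3 and Tmem100, and 2.98 for Gja4 in KO, none called.

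In WT 0 of 8 were called by edgeR, against 8.04% of 13515 genes, and 1 (Mgp) passed an unadjusted p under 0.05, against 17.7%. In KO 0 of 8 were called, against 7.56%, and 2 (Mgp and Clu) passed an unadjusted p under 0.05, against 18.3%. DESeq2 called Mgp alone of the 8 in each genotype and voom called none. The groups did not overlap, with 4 weeks higher, for Gja4, Mgp, Clu and Crip1 in WT (4 of 8, against 17.4% of all genes) and for Gja4, Mgp and Clu in KO (3 of 8, against 21.6%). The median fold change of the 8 was 0.97 in WT and 0.92 in KO, beside 0.27 and 0.34 for all genes. The 12 pan-endothelial genes had medians of 0.80 and 0.81, and the 16 sinusoidal and venous genes 1.29 and 1.29.

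The other arterial genes, a list of 26 that holds the Notch, ephrin and transcription factor members, give the setting. At neither time point was any of those tested called for a KO effect (25 at 2 weeks, 26 at 4 weeks), with medians of -0.39 and -0.08. The smallest unadjusted p-values at 2 weeks belonged to Sox17, an arterial transcription factor, with means of 346 ± 72.6 CPM over the 4 WT and 211 ± 59.9 CPM over the 4 KO libraries (± SD; log2 fold change -0.73, unadjusted p = 0.0207, adjusted p = 1, edgeR), and to Cxcl12, a chemokine gene (-0.38, unadjusted p = 0.0737). At 4 weeks they belonged to Ltbp4, a matrix gene that binds latent TGF-beta, with means of 987.5 ± 331 CPM over the 5 WT and 572 ± 146 CPM over the 4 KO libraries (± SD; -0.80, unadjusted p = 0.0138, adjusted p = 0.9997, edgeR), and to Nrp1, a VEGF co-receptor (-0.44, unadjusted p = 0.0255). The Notch ligand Dll4 had KO fold changes of 0.40 and 0.05 at 2 and 4 weeks, the ephrin ligand Efnb2 -0.46 and -0.24, the Notch target Hey1 0.59 and 0.35, and Sox17 0.13 at 4 weeks. The 2 smallest p-values for a difference between the time points were those of Sox17 (0.85, SE 0.26, unadjusted p = 0.00532, adjusted p = 0.313) and Depp1 (1.01, SE 0.49, unadjusted p = 0.0608), by edgeR.

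Between time points, 3 of 25 other arterial genes were called higher in WT and 3 in KO and none lower, against 8.04% and 7.56% of all genes called in either direction; the fold change was positive for 22 of the 25 in WT and 24 in KO. In WT these were Dll4 (1.71, SE 0.42, adjusted p = 0.0231), Notch1 (2.17, SE 0.60, adjusted p = 0.0386) and Nrp1 (1.44, SE 0.22, adjusted p = 0.00126). In KO they were Nrp1 (1.08, SE 0.23, adjusted p = 0.0116), Sox17 (1.04, SE 0.19, adjusted p = 0.00456) and Slc6a6, a taurine transporter gene (1.22, SE 0.34, adjusted p = 0.0421), all by edgeR. Sinusoidal and venous genes had 3 of 16 called higher in WT and 2 in KO, against the same 8.04% and 7.56%. Emcn, which encodes endomucin, and Plvap, a diaphragm protein gene of fenestrated vessels, were among them, at 1.36 and 1.79 in WT and 1.58 and 1.80 in KO. Stab2 was not called (4.02, SE 2.26, in WT), nor was the lymphatic and sinusoidal receptor gene Flt4 (0.09 in WT and 0.41 in KO). For the KO effect, Stab2 was tested at 4 weeks only (-0.11), and Flt4, Emcn and Plvap were at -0.51, -0.17 and -0.34 at 2 weeks and -0.20, 0.12 and -0.28 at 4 weeks, none called.

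The arterial genes did not share 1 pattern over the libraries. At 4 weeks WT m2 held the most Gja5, Bmx and Crip1, KO m3 the most Gja4, Mgp and Clu, KO f2 the most Tmem100 and WT m1 the most Gkn3. KO m1 held the least Gja4, Mgp and Tmem100. Because the 9 libraries fall into sets of 5 and 4, no correlation among the genes is given at 4 weeks. At 2 weeks the 4 genes with counts of at least 10 in all 8 libraries (Gja5, Mgp, Clu and Crip1) gave 6 pairs. None passed the threshold. Gja5 and Crip1 had the smallest p by Pearson's r, at -0.72 (permutation p = 0.0605, adjusted p = 0.257), with Spearman's rho of -0.33 (permutation p = 0.428, adjusted p = 0.751; n = 8) and r of -0.67 without the 2 libraries farthest from the median of Gja5, KO f1 and WT m2. Mgp and Clu had the smallest p by Spearman's rho, at -0.69 (permutation p = 0.0694, adjusted p = 0.416), with Pearson's r of -0.62 (permutation p = 0.0858, adjusted p = 0.257; n = 8), also -0.62 without the 2 libraries farthest from the median of Mgp, KO f4 and WT m3.

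**Figure D4:**
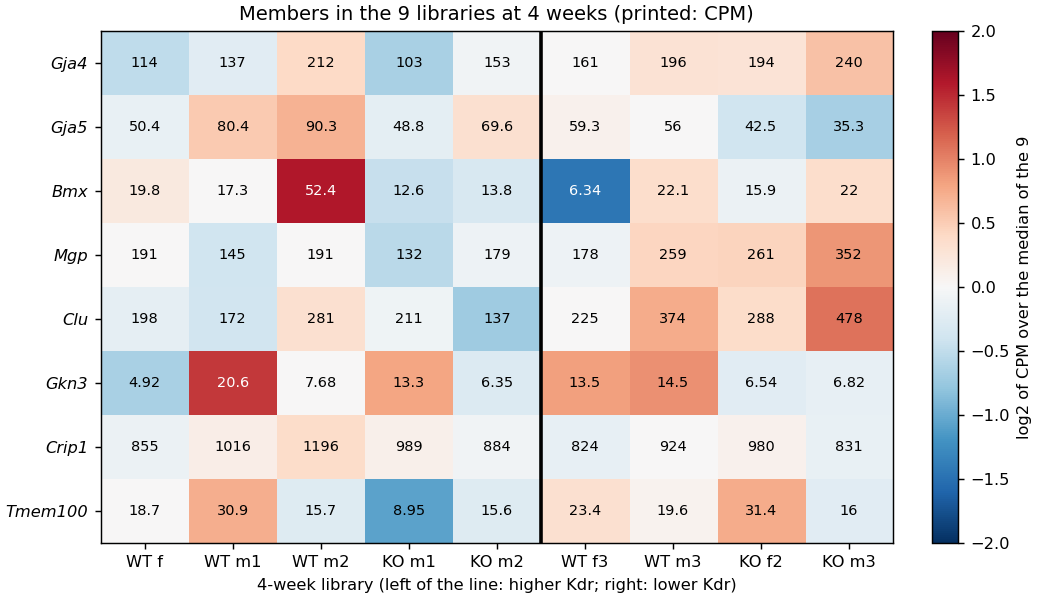
CPM of the 8 genes in the 9 libraries at 4 weeks, printed in each cell and coloured by log2 of the value over the gene's median of the 9 (scale -2 to 2). The black line separates the 5 libraries with higher Kdr from the 4 with lower Kdr; KO m3 has the highest Gja4 (240), Mgp (352) and Clu (478) and the lowest Gja5 (35.3 CPM).

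The genes whose log2 CPM ran most like each arterial gene over the 9 libraries at 4 weeks were found among 6905 genes (mean log2 CPM of at least 4), as a description that carries the split of the libraries into sets. For Gja4 they were Sdf2l1, Fbln5 and Hmgb1 (Pearson's r of 0.96, 0.94 and 0.93). For Gja5 they were Banp, Swt1 and Sept9 (0.96, 0.95 and 0.94). For Bmx they were Ric8a, Ndfip2 and Psmb10 (0.95, 0.94 and 0.94). Fbln5 encodes an elastic fibre protein. For Mgp they were Snx22, Gm44986 and Ppib (0.98, 0.97 and 0.96), and for Clu Bace2, Crtap and Selenop (0.97, 0.97 and 0.96). For Gkn3 they were Ulk4, Ctnnb1 and Hnrnpm (0.92, 0.90 and 0.88), for Crip1 Phip, Rsl24d1 and Gps2 (0.93, 0.92 and 0.91), and for Tmem100 Orc5, Bbx and Pbdc1 (0.92, 0.89 and 0.87). Among all these genes Fbln5 alone was on the list of other arterial genes, and none was named for more than 1 member.

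Positions are 1-based on GRCm38 (GENCODE M21). Gja4 (ENSMUSG00000050234) lies on chr4:127311421-127314039, Gja5 (ENSMUSG00000057123) on chr3:96904693-97077416, Bmx (ENSMUSG00000031377) on chrX:164192842-164258193 and Mgp (ENSMUSG00000030218) on chr6:136872435-136875823. Clu (ENSMUSG00000022037) lies on chr14:65968483-65981547, Gkn3 (ENSMUSG00000030048) on chr6:87383256-87388935, Crip1 (ENSMUSG00000006360) on chr12:113146316-113153879 and Tmem100 (ENSMUSG00000069763) on chr11:90030348-90036508. All are protein-coding. The exons of Gja5 overlap those of Gpr89 on the opposite strand over 165 bases, and since the strand setting of the counting is not given in the sources used here, reads there cannot be assigned to either gene. The exons of the other 7 overlap no other gene.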

How the data were processed

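Bone marrow endothelial cells of 17 mice were profiled with SmartSeq2, which has no molecular identifiers, so that counts are of amplified fragments. The values the authors deposited are raw counts, 1 file a library, not normalized. Per the submitters' processing notes, cutadapt, STAR and HTSeq 0.6.1p1 were used with GRCm38 (mm10); the annotation and the strand setting are not given in the sources used here. Symbols came from GENCODE M21, which matched 49326 of 49585 identifiers. The labels do not say that libraries came from separate litters or sorts, so p-values measure the spread between these libraries.

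Counts were tested with edgeR 4.0.16 in R 4.3.3 (filterByExpr, TMM scaling, robust quasi-likelihood fit, sex as a term), each time point alone for the KO effect and all 17 libraries together for the comparisons across time. Adjusted p-values are Benjamini-Hochberg values across the genes each fit tested, and those under 0.05 were called. Log2 CPM used a prior count of 2, and the floor was 3 counts. Single genes were tested by exact two-sided permutation of log2 CPM. Levels per kb use the length of merged exons. The alternatives were DESeq2 1.42.0, voom in limma 3.58.1, other scalings and filters, fits without sex, with males only, with a replicate block, without each library in turn, and, added after the data were seen, a term for the 2 sets of 4-week libraries. The fits were tested on simulated counts. No gene set test was run.

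The 8 genes, the 10 other gene lists and the tests were chosen with earlier results of these data known. The genes named were the 8, up to 5 other arterial genes past the threshold or otherwise the 2 smallest p-values, Dll4, Efnb2, Hey1 and Sox17. Also named were 4 sinusoidal genes and the 3 genes most like each member. The most abundant gene was named for the pan-endothelial, mural, neutrophil and erythroid lists. Of 124 listed symbols 123 matched. The correlations planned at 4 weeks are not given, because the libraries fall into sets.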

Additional observations from a re-analysis of the deposited data

Results flagged for a closer look

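The lowest and highest libraries of each gene were compared with the rest of their group in 32 groups of 4 or 5 libraries, by the gap to the nearest library over the range of the group; chance flags about 1 group in 20. Bmx in 2-week KO f1 was at 25.1 CPM, far above the 1.48 to 3.10 CPM of the other 3 KO libraries. Clu in the same library was at 47.1 CPM, below the 110 to 113 CPM of the others. Both values lay within the 2-week WT range, 0.186 to 28.0 CPM for Bmx and 21.6 to 144 CPM for Clu. KO f1 was also the library without Gja4 counts and with the lowest Gja5, at 10.2 CPM, and the highest Crip1, at 1059 CPM, of the 8 libraries at 2 weeks. Gkn3 in 4-week KO m1 was at 13.3 CPM, above the 6.35 to 6.82 CPM of the other 3 KO libraries and within the WT range.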

How the results depend on the processing

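The zeros and the scatter at 2 weeks limit what can be seen there, in libraries of 26705337 counts or more against 20477400 or more at 4 weeks: the SE of the KO effect was above 1 for 4 of the 8 genes. None of the 8 was called for a KO effect, or for its difference between time points, under any alternative run, leaving out each library included (0 to 0). Gja5 kept its negative KO sign in all of them, over -1.12 to -0.60 at 2 weeks and -0.56 to -0.45 at 4 weeks, and without each library in turn over -1.02 to -0.50 and -0.64 to -0.36.

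Other signs turned, for values whose errors include 0; the cause was not tested. The KO effect at 2 weeks became 0.028 for Clu with upper quartile scaling, 1.41 for Bmx and 1.31 for Gkn3 with voom, 0.36 for Gkn3 without the sex term, and, without KO m2 and m3, 1.43 for Bmx, -0.19 for Mgp and 0.39 for Tmem100. At 4 weeks it became 0.048 for Crip1 with voom, -0.12 for Gja4 in males alone, and -0.061 for Gja4 and -0.071 for Clu with the term for the sets. The difference between time points became -0.018 for Mgp and 0.032 for Crip1 with voom, and the change of Gja5 over time in WT -0.0019 with upper quartile scaling. Without each library in turn, signs turned within these ranges. At 2 weeks they were -1.79 to 2.18 (Bmx), -0.12 to 0.28 (Mgp), -0.34 to 0.68 (Clu), -8.16 to 1.32 (Gkn3), -0.11 to 0.26 (Crip1) and -3.43 to 1.94 (Tmem100). At 4 weeks they were -0.13 to 0.28 (Gja4), -0.034 to 0.48 (Mgp), -0.24 to 0.40 (Clu) and -0.20 to 0.023 (Crip1), and the sign of Mgp and of Clu turned without KO m3 alone. For the difference they were -0.091 to 0.43 (Gja5), -1.94 to 1.29 (Bmx), -0.14 to 0.37 (Mgp), -0.28 to 0.51 (Clu), -2.81 to 1.05 (Gkn3), -0.31 to 0.045 (Crip1) and -1.34 to 1.96 (Tmem100). The change of Gja5 over time ranged over -0.092 to 0.15 in WT and over -0.049 to 0.47 in KO. The log2 CPM difference of Bmx at 2 weeks ranged over -0.074 to 2.21. Signs held, but sizes moved by over 1.5 times, for the KO effect of Gja4 at 2 weeks (-1.54 to -0.41) and of Bmx (-0.89 to -0.053), Gkn3 (-0.88 to -0.38) and Tmem100 (-0.69 to -0.017) at 4 weeks, and for the difference of Gja4 (0.48 to 1.33). Over time they did so for Gja4 (0.47 to 1.11), Bmx (0.50 to 3.29), Gkn3 (0.44 to 3.96) and Tmem100 (0.87 to 3.48) in WT, and for Bmx (0.062 to 2.26), Gkn3 (0.15 to 2.13), Crip1 (0.019 to 0.37) and Tmem100 (1.39 to 3.32) in KO. With the sign kept, voom also moved the KO effect at 2 weeks to -0.44 (Gja4), 0.21 (Mgp), -0.056 (Clu) and -1.60 (Tmem100). At 4 weeks voom moved it to -0.11 (Bmx) and -0.021 (Tmem100). The difference moved by voom to 2.03 (Gja4), 0.088 (Gja5), -0.78 (Bmx), 0.10 (Clu), -1.91 (Gkn3) and 1.95 (Tmem100). Males alone gave -0.90 (Bmx) and -0.70 (Tmem100) at 4 weeks. Without KO m2 and m3 the KO effect at 2 weeks was -2.17 for Gja4, 0.39 for Crip1 and -10.7 for Gkn3. The fit of all 17 libraries gave -0.13 for Bmx and -0.30 for Gkn3 at 2 weeks.

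Over time, Mgp was the 1 arterial gene called in WT by DESeq2 and by a filter of at least 10 counts in every library (1.04, adjusted p = 0.0336), and the 1 called in KO by both, by DESeq2 size factors in edgeR (1.15, adjusted p = 0.0444) and without the sex term (1.10, adjusted p = 0.0388); without each library in turn, 0 or 1 was called in KO.

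Counts over all genes moved more. For the KO effect at 2 weeks DESeq2 called 149, voom 12 and the fit of all 17 libraries 33, and at 4 weeks DESeq2 called 17. For the difference, DESeq2 called 929, voom 9, no filter 6, the 10-count filter 0, and leaving out each library 7 to 52. Over time, in WT and KO, DESeq2 called 2090 and 2144, no filter 580 and 567, the 10-count filter 639 and 626, and leaving out each library 520 to 1398 and 604 to 1300.

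Deviations of same-numbered WT and KO libraries from their group means had r of -0.0237 to 0.0493 at 2 weeks. Other pairs of that time point ran from -0.0688 to 0.073. At 4 weeks r was 0.0525 (m1), 0.0633 (m2) and 0.16 (m3), where other pairs ran from -0.147 to 0.139. Same-numbered males at 4 weeks also lay in the same set of libraries, so whether the numbers pair them cannot be told. With the replicate block in place of sex, the KO effect at 2 weeks became 0.82 for Bmx and 0.20 for Clu, the difference became -0.14 for Clu and 0.81 for Gkn3 and was called for 0 of all genes, and Gja5 at 4 weeks was -0.50 (unadjusted p = 0.0143 by edgeR, not called).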
